A study of Mus musculus with 6 samples.

Results

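Calcium pumps and sodium-calcium exchangers were followed across the cell types of the rd10 mouse retina. The 9 genes were chosen by symbol from the 32285 genes counted, and all 9 were present. They were 4 plasma membrane calcium pumps (PMCA), Atp2b1, Atp2b2, Atp2b3 and Atp2b4, 2 pumps of the endoplasmic reticulum (SERCA), Atp2a2 and Atp2a3, and 3 sodium-calcium exchangers (NCX), Slc8a1, Slc8a2 and Slc8a3. All retinas came from mice of strain B6.CXB1-Pde6b-rd10/J, whose Pde6b mutation makes rods degenerate. Retinas were injected intravitreally at P18 with saline or with 20 ng of recombinant IL-27, a cytokine, and were collected at P20. There were 3 saline control libraries (replicates 1, 2 and 6) and 3 IL-27 treated libraries (replicates 4, 5 and 10). The saline eyes were themselves injected, and no uninjected retina was analysed here. The comparison asks how the retina differs 2 days after IL-27, while rods are dying.

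The libraries held 8968 to 9965 barcodes of single nuclei and 36678332 to 48260748 UMIs, the counts of single RNA molecules. Pairs of libraries shared 18 to 30 barcodes. Of 52262 nuclei kept, 49817 were assigned to 11 cell types by marker genes, namely the neurons (rods, cones, bipolar cells or BC, amacrine cells or AC, horizontal cells or HC and retinal ganglion cells or RGC), the glia (Muller glia, astrocytes and microglia) and the vessel cells (endothelial cells and pericytes). Of the 78 markers, 73 were highest in their own type. The exceptions were Tfap2b and Pax6 (AC), Slc1a3 (Muller glia), Aldh1l1 (astrocytes) and Kdr (endothelial cells). Xist was high in saline replicate 2 and IL-27 replicate 5 and near 0 in the other libraries, the pattern of 1 female retina in each group.

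Calcium enters retinal neurons and glia through channels and must be removed again against a steep gradient. PMCA pumps use ATP to export calcium across the cell membrane with high affinity, NCX exchangers use the inward sodium gradient to export it with high capacity, and SERCA pumps return it to the endoplasmic reticulum. Photoreceptor outer segments rely on a different, potassium-dependent exchanger family, encoded by Slc24 genes, and the PMCA pumps and NCX exchangers work in the inner segment, the synapse and the other cells.

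The identifiers of all 9 genes matched the GENCODE M21 annotation of GRCm38. The build used for counting is not named in the sources used here, so the coordinates below are those of that annotation only. The PMCA genes lie at chr10:98914406-99026143 (Atp2b1), chr6:113743831-114042613 (Atp2b2), chrX:73503086-73571005 (Atp2b3) and chr1:133699457-133801041 (Atp2b4). The SERCA genes lie at chr5:122453513-122502225 (Atp2a2) and chr11:72961169-72993044 (Atp2a3). The NCX genes lie at chr17:81373105-81738377 (Slc8a1), chr7:16129826-16161063 (Slc8a2) and chr12:81197915-81333180 (Slc8a3). Other annotated genes overlap 5 of the 9 (Atp2b2, Atp2b4, Atp2a2, Slc8a1 and Slc8a3).

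RefSeq windows (GRCm38.p6) upstream of a start matched 7 of the 9 genes, with 10 windows of 250 bases in all. The 3 shown, 5′ to 3′ on the strand of the gene, precede the starts of the exchanger that differed between Muller clusters, the exchanger that was highest in cones and the SERCA pump found in pericytes. Capitals mark GC boxes (GGGCGG) and CCAAT boxes (CCAAT) on either strand.
Slc8a1 (chr17:81738388-81738637, minus strand): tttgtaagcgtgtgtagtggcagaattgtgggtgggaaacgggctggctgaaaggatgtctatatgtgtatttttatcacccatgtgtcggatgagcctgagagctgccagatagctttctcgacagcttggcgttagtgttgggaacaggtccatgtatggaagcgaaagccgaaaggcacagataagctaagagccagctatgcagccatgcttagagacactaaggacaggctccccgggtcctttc
Slc8a3 (chr12:81333181-81333430, minus strand): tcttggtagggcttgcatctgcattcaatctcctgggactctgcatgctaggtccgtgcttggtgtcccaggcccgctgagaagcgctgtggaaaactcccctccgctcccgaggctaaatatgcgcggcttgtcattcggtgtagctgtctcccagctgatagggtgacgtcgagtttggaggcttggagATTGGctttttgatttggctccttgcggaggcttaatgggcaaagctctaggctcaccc
Atp2a3 (chr11:72960919-72961168, plus strand): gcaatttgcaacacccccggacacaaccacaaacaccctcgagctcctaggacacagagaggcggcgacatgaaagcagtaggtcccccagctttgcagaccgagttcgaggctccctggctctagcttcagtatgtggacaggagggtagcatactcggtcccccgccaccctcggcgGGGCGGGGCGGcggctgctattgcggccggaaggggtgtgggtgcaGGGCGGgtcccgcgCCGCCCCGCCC
The Slc8a1 window held neither motif. The Slc8a3 window held 1 CCAAT box, on the opposite strand, and the Atp2a3 window held 5 GC boxes, some overlapping. Over the 10 windows, 6 held a GC box and 2 a CCAAT box, against 32.7% and 33.8% of the 32851 promoter windows of all genes. Atp2b1 and Atp2b2 gave several windows each, GC boxes among them, so the windows are not separate genes. An Atp2b1 window had 236 exonic bases of 250 and an Atp2b2 window 138, and all Atp2b2 windows lay inside the annotated gene body. Shares by gene were not compared. The homeodomain motif TAATCC, searched on both strands, was in none of the 10 and in 6.25% of all. The only Atp2b4 window starts inside the annotated gene body and its last 4 bases are exonic, so it is not printed.

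Each gene had its own order of cell types. Levels are given as CPM, the UMIs of a gene scaled to the total UMIs of the summed nuclei of a type and library, as mean ± SD over 6 libraries. Cells were clustered without these 9 genes, and differences of level between cell types are described with no test.

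**Figure D1:**
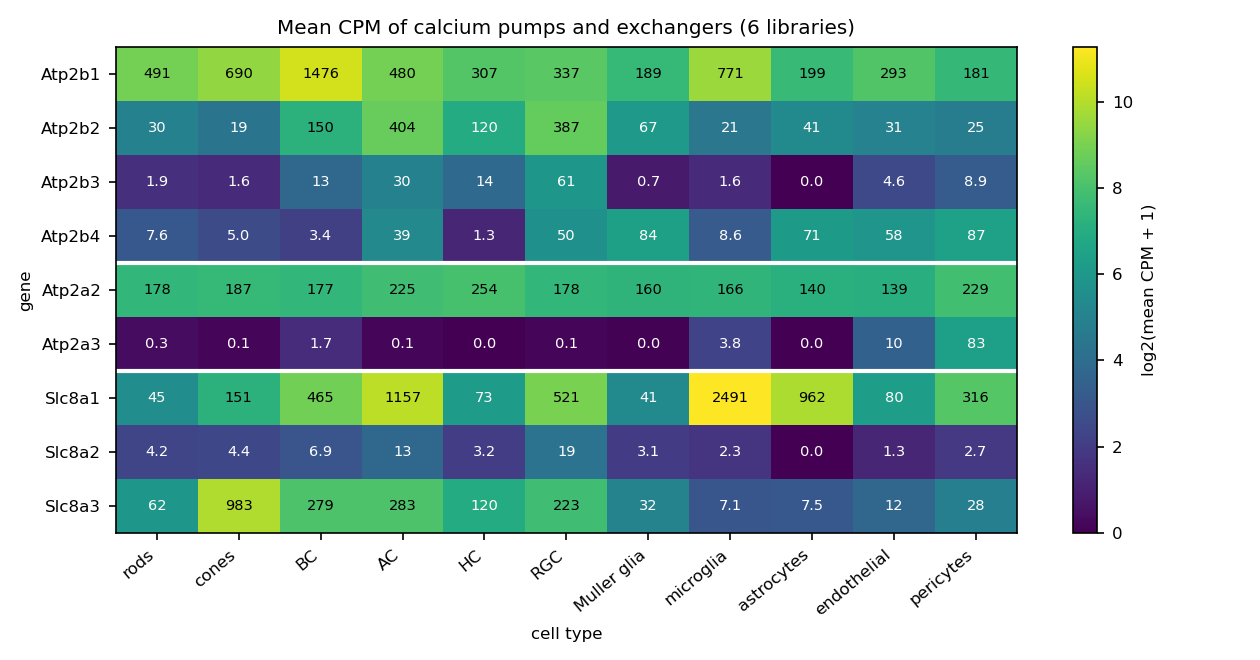
Mean CPM of the 9 genes (rows, ordered as PMCA, SERCA and NCX) in 11 cell types (columns) over 6 libraries, printed in each cell and coloured by log2(CPM + 1). Atp2b1 stands out in BC, Slc8a1 in microglia and Slc8a3 in cones, and Atp2a2 differs little between columns.

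Atp2b1, the PMCA pump found in most tissues, was highest in BC at 1476 ± 70.8 CPM (SD, n = 6). The saline libraries gave 1437, 1554 and 1466 CPM, and the IL-27 treated libraries 1383, 1449 and 1565 CPM. All 6 lay above the highest microglial library, 846 CPM. Microglia (771 ± 56.8 CPM) and cones (690.3 ± 62.1 CPM) came next and overlapped in range. Rods (491 ± 23.3 CPM) and AC (480.2 ± 23.2 CPM) also overlapped and lay below the cones. Muller glia (189 ± 17.2 CPM) and pericytes (181 ± 23.1 CPM) were lowest, so the mean in BC was 7.80 times that in Muller glia.

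Atp2b2, the pump known from hair cell bundles and neuronal synapses, was an inner retinal gene. Its mean was 404 ± 5.21 CPM in AC and 387 ± 13.1 CPM in RGC, with overlapping ranges, and 149.5 ± 7.57 CPM in BC, below both. The AC values were alike in all 6 libraries, from 399 to 414 CPM. In rods (30.3 ± 3.09 CPM) and cones (19.3 ± 5.76 CPM) it was a minor gene.

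Atp2b3, an X-linked neuronal pump, was highest in RGC at 61.0 ± 3.51 CPM. Next came AC at 30.4 ± 0.697 CPM, with no overlap between the types. In rods (1.88 ± 1.01 CPM), cones (1.60 ± 1.60 CPM) and Muller glia (0.747 ± 0.492 CPM) it was near the limit of detection, and astrocytes had no UMI.

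Atp2b4, a pump prominent in smooth muscle and red blood cells, differed from the other PMCA genes in being highest in glia and vessels. It reached 87.0 ± 30.6 CPM in pericytes, 83.6 ± 26.9 CPM in Muller glia, 70.7 ± 18.9 CPM in astrocytes and 57.5 ± 52.6 CPM in endothelial cells, and neighbours in this order overlapped. The order turned between groups, since Muller glia averaged 59.9 CPM in saline libraries, below pericytes at 83.6 CPM, and 107 CPM in IL-27 treated libraries, above pericytes at 90.3 CPM. RGC (50.1 ± 5.23 CPM) and AC (38.6 ± 2.01 CPM) did not overlap each other. Microglia, rods, cones, BC and HC had 8.56 CPM or less. Thinned to 1000 UMIs per nucleus, 7.51% of Muller nuclei had an Atp2b4 UMI (exact 95% interval 6.80 to 8.26%), against 0.736% of rods (0.581 to 0.919%) and 0.414% of cones (0.214 to 0.721%). These intervals cover counting error only. The thinning left out 3485 rod nuclei and no Muller or cone nucleus, and without it the shares were 26.6% in Muller glia, with a median of 4374 UMIs, and 0.990% in rods, with 1262.

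Atp2a2, the housekeeping SERCA pump, was the most even of the 9 genes. Its means ran from 139 ± 16.2 CPM in endothelial cells to 254 ± 49.6 CPM in HC, a ratio of 1.82. Rods (178 ± 12.0 CPM), RGC (178 ± 19.2 CPM) and BC (177 ± 14.3 CPM) were indistinguishable in range. Atp2a3, the SERCA pump known from blood and endothelial cells, was at 82.6 ± 20.7 CPM in pericytes and at 10.2 ± 12.5 CPM in endothelial cells, with no overlap. The pericyte value rested on 3 to 6 UMIs per library. Muller glia, AC and RGC each averaged under 0.2 CPM, from 1, 10 and 2 UMIs in all. It was not detectable at this depth in HC and astrocytes, which had no UMI.

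Slc8a1, the exchanger best known from the heart, was highest in microglia at 2491 ± 178 CPM. The saline libraries gave 2350, 2581 and 2487 CPM and the IL-27 treated libraries 2599, 2708 and 2224 CPM. AC (1157 ± 63.7 CPM) and astrocytes (962 ± 252 CPM) followed with overlapping ranges. RGC (521 ± 40.9 CPM) and BC (465 ± 25.03 CPM) lay below them. Muller glia had the lowest mean, 40.9 ± 19.6 CPM, which overlapped rods at 44.6 ± 9.37 CPM, and the microglial mean was 60.9 times the Muller mean. At 1000 UMIs per nucleus, 82.3% of microglia had a Slc8a1 UMI (79.9 to 84.5%). The shares of Muller nuclei (4.32%, 3.78 to 4.91%) and rods (4.31%, 3.93 to 4.72%) had overlapping intervals.

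Slc8a3, an exchanger of brain and skeletal muscle, was highest in cones. They had 983 ± 81.7 CPM, with saline libraries at 866, 920 and 1016 CPM and IL-27 treated libraries at 1035, 969 and 1091 CPM. The cone mean was 15.8 times that of rods (62.1 ± 6.67 CPM) and 3.48 times that of AC (283 ± 12.9 CPM), and no library of either reached the lowest cone library. AC and BC (279 ± 10.0 CPM) overlapped, and RGC (223 ± 10.4 CPM) lay below both. At 1000 UMIs per nucleus, 56.9% of cones (55.03 to 58.7%) and 4.91% of rods (4.499 to 5.34%) had a Slc8a3 UMI. Because the antisense gene Gm3693 overlaps Slc8a3 and was also highest in cones, at 70.4 CPM, reads of the pair may be mixed if strand was ignored in counting. Slc8a2, the exchanger of neurons, was at 18.6 ± 2.17 CPM in RGC and 12.7 ± 1.29 CPM in AC, without overlap. Its mean in each other type was 6.88 CPM or less.

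Levels of different genes were compared only per kilobase of gene body, a rough scale for 3′ counts of nuclear RNA. On that scale Atp2b1 led in BC (13.2 CPM per kb), followed by Atp2a2 (3.63 CPM per kb). In rods, Atp2b1 (4.39 CPM per kb) and Atp2a2 (3.66 CPM per kb) were well above Slc8a3 (0.459 CPM per kb). Cones differed in that Slc8a3 (7.27 CPM per kb) stood beside Atp2b1 (6.18 CPM per kb). Microglia had Atp2b1 (6.90 CPM per kb) and Slc8a1 (6.82 CPM per kb) at similar levels. In Muller glia, Atp2a2 came first (3.29 CPM per kb), then Atp2b1 (1.69 CPM per kb) and Atp2b4 (0.823 CPM per kb).

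Subclasses of BC and AC were named from markers and are described with no test. Of 9992 BC nuclei, 785 were named ON cone bipolar, 747 OFF cone bipolar (1 cluster each) and 3165 rod bipolar, and 5295 in 11 clusters had no subclass name. Of 11815 AC nuclei, 5101 were named GABAergic, 2231 glycinergic and 752 starburst, and 3731 had no subclass name. Subclass values are those of the named clusters only. Slc8a1 averaged 2255 ± 188 CPM in ON cone bipolar nuclei, 551 ± 73.2 CPM in OFF cone bipolar nuclei and 36.3 ± 7.29 CPM in rod bipolar nuclei. The ON cone bipolar mean was 62.0 times the rod bipolar mean, and none of the 3 ranges overlapped. The ON cone bipolar libraries, at 2090 to 2558 CPM, overlapped those of microglia as a type, at 2224 to 2708 CPM. The BC nuclei with no subclass name averaged 449 ± 34.2 CPM of Slc8a1 and 1002 ± 25.6 CPM of Atp2b1. Atp2b1 grouped the same cells differently. It was high in ON cone bipolar (2808 ± 180 CPM) and rod bipolar nuclei (2187 ± 204 CPM) and lower in OFF cone bipolar nuclei (478 ± 47.7 CPM). ON cone and rod bipolar cells both depolarize to light through the mGluR6 cascade, whereas OFF cone bipolar cells use ionotropic glutamate receptors. Whether the level of Atp2b1 follows this division was not tested.

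Among AC, Atp2b4 averaged 65.5 ± 4.83 CPM in GABAergic nuclei other than starburst, 4.79 ± 1.89 CPM in glycinergic nuclei and 1.01 ± 1.37 CPM in starburst nuclei, the cholinergic cells of direction selectivity. The GABAergic mean was 13.7 times the glycinergic mean, and every GABAergic library lay above every library of the other named AC subclasses. The AC nuclei with no subclass name averaged 24.8 ± 3.26 CPM of Atp2b4. Atp2b1 was likewise higher in GABAergic (688 ± 37.4 CPM) than in glycinergic nuclei (186 ± 7.51 CPM), a ratio of 3.69. Atp2b2 ran in another order, with 661 ± 24.7 CPM in starburst, 527 ± 27.1 CPM in glycinergic and 372 ± 14.7 CPM in GABAergic nuclei, none overlapping. Slc8a3 was lowest in starburst nuclei, at 98.98 ± 16.5 CPM against 396 ± 26.3 CPM in glycinergic nuclei. Atp2a2 was highest in starburst nuclei, at 372 ± 42.4 CPM. Slc8a1 had means of 1266 to 1318 CPM in the 3 named AC subclasses, which overlapped, and 852 ± 38.4 CPM in the AC nuclei with no subclass name, below all of them.

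**Figure D2:**
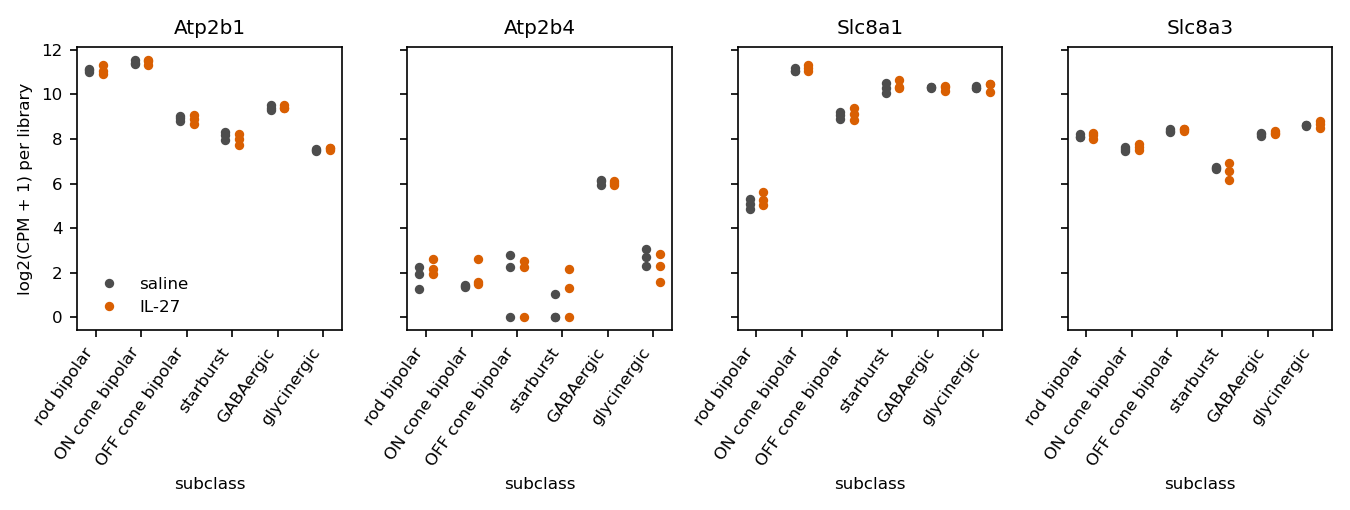
Levels of Atp2b1, Atp2b4, Slc8a1 and Slc8a3 in 3 bipolar and 3 amacrine subclasses, as log2(CPM + 1), with 1 point per library (grey, saline; orange, IL-27). Rod bipolar nuclei sit far below ON cone bipolar nuclei for Slc8a1 but near them for Atp2b1. Among the named subclasses shown, GABAergic nuclei alone are high for Atp2b4.

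The genes whose pattern over the 11 types was most like each member were found among 15167 genes by Pearson's r of log2(CPM + 1). The first was Hrh2 for Atp2b1 (r = 0.930), Plppr5 for Atp2b2 (r = 0.971), Scn3a for Atp2b3 (r = 0.982) and Colgalt2 for Atp2b4 (r = 0.965). It was Trub1 for Atp2a2 (r = 0.946), AU019990 for Atp2a3 (r = 0.964), AC149090.1 for Slc8a1 (r = 0.875), Pram1 for Slc8a2 (r = 0.922) and Gm3693 for Slc8a3 (r = 0.971). The next 2 were Gm42477 and Mbp for Atp2b1, Cd226 and Homer2 for Atp2b2, and Mgat4c and Kcnd2 for Atp2b3. For Atp2b4 they were Arap2 and Napepld, for Atp2a2 Plcxd3 and C730034F03Rik, and for Atp2a3 Tfpi and Ndufa4l2. For Slc8a1 they were Gm13703 and Gga2, for Slc8a2 Actr3b and Gas2, and for Slc8a3 Cdh18 and Camk2b. These are descriptions over 11 points that share libraries.

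IL-27 treated and saline control libraries were compared in each cell type by edgeR's quasi-likelihood test on the summed counts, with log2FC as IL-27 over saline and p-values adjusted over all genes of a type by Benjamini-Hochberg. Of the 99 pairs of gene and cell type, 62 passed the filter on low counts and 37 did not. Only Atp2b4 in Muller glia passed an adjusted p-value of 0.05. Over all genes and types together 0.0067% of tests passed. In Muller glia 4 of 13970 genes (0.0286%) passed, 0.0215% being higher and 0.00716% lower. The share was 0.00761% in rods, 0.00677% in BC and 0.00598% in AC, and it was 0% in the other types. Nothing in the labels says whether replicates came from separate animals, and p-values measure only the spread between these libraries.

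**Figure D3:**
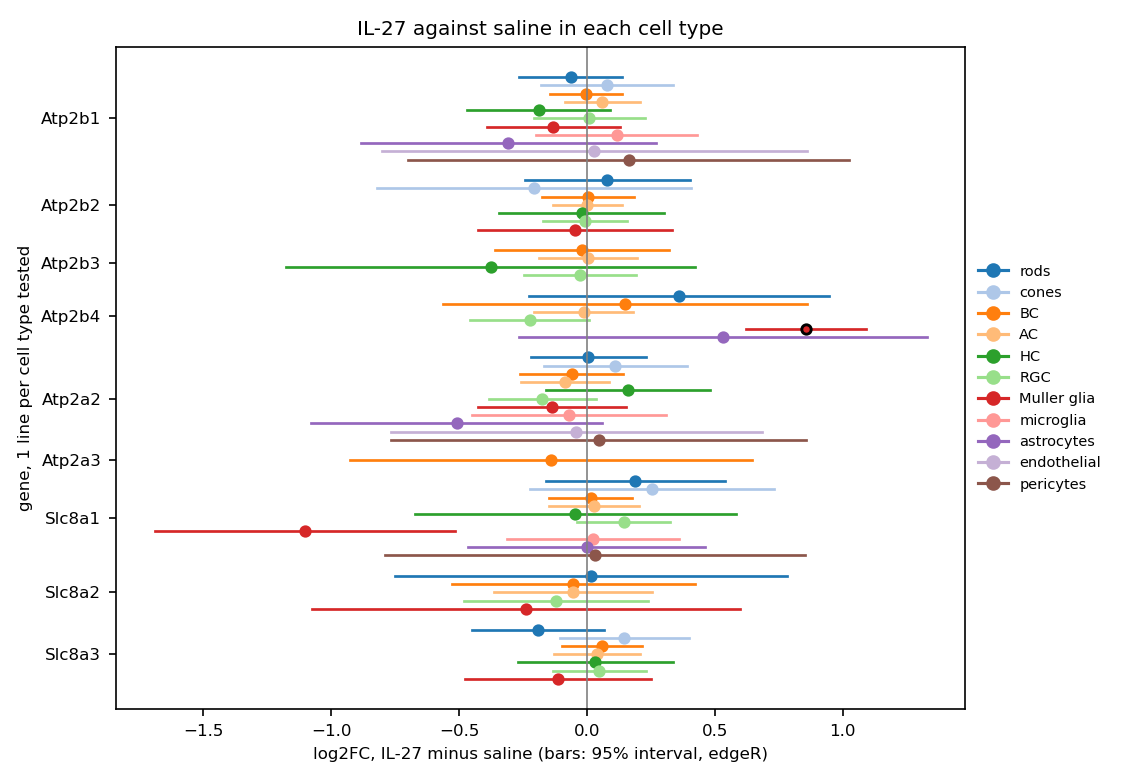
Log2FC of IL-27 over saline for each gene and cell type that passed the filter, with 95% intervals from edgeR (n = 3 against 3), coloured by cell type. The ringed point is Atp2b4 in Muller glia, the 1 test that passed an adjusted p of 0.05; Slc8a1 in Muller glia lies farthest below 0.

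Atp2b4 rose in Muller glia of IL-27 treated retinas. Saline libraries had 58.9, 64.4 and 56.4 CPM (303, 293 and 207 UMIs), and IL-27 treated libraries had 106, 97.1 and 118 CPM (364, 369 and 380 UMIs). All 3 IL-27 treated libraries lay above all 3 saline libraries. The log2FC was 0.86 (SE 0.10, edgeR adjusted p = 0.0439), a 1.81-fold rise with a 95% interval of 1.54 to 2.13. At 1000 UMIs per nucleus, 5.21% of 2860 saline Muller nuclei (4.42 to 6.09%) and 10.4% of 2283 IL-27 treated Muller nuclei (9.16 to 11.7%) had an Atp2b4 UMI. The nuclei of 3 libraries were pooled for each share, and nuclei are not replicates. Those intervals cover counting error only, not the spread between libraries. The shares describe the same UMIs as the test and add no separate support.

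Nuclei of the 2 biggest Muller clusters both showed the difference. In the first, saline libraries had 57.2 to 69.3 CPM and IL-27 treated libraries 97.2 to 133 CPM. In the second, the ranges were 56.5 to 76.6 CPM and 111 to 129 CPM. In a saline-enriched cluster, described with Slc8a1, they were 34.9 to 60.7 CPM and 39.95 to 123 CPM and overlapped. In the smallest cluster, of 143 summed nuclei, they were 0 to 51.4 CPM and 29.0 to 98.0 CPM and also overlapped. The clusters split the same UMIs as the test and add no separate support. Without the saline-enriched cluster, the log2FC was 0.83 (SE 0.11, edgeR adjusted p = 0.0257, where 0.0369% of genes passed, all higher). The call is fragile, since it was lost when any library other than IL-27 replicate 10 was left out (adjusted p = 0.0619 to 0.459), with log2FC of 0.82 to 0.91 in those 5 fits. It was also lost with Xist as a covariate (adjusted p = 0.128), with library totals (0.092), with a filter at 30 counts (0.0678) and without removing doublets (0.0657). DESeq2 called it (adjusted p = 2.42e-05, where 0.73% of genes passed, 0.229% higher and 0.501% lower), and so did edgeR without IL-27 replicate 10 (adjusted p = 0.00208, where 2.96% passed, 0.774% higher and 2.19% lower).

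Markers of cells that also express Atp2b4 were measured in the same Muller sums. The 7 pericyte markers summed to 88.1 to 99.8 CPM in saline and 78.7 to 99.99 CPM in IL-27 treated libraries. Those of endothelial cells, of which Flt1 and Kdr were the main part, summed to 1573 to 1848 and 1844 to 2009 CPM. The 5 astrocyte markers summed to 90.5 to 93.0 CPM in saline and 93.6 to 134 CPM in IL-27 treated libraries, without overlap, and Gfap and Aldh1l1 made up most of this. Aldh1l1 averaged 43.7 CPM in Muller glia, above astrocytes at 15.5 CPM. Pdgfra had 2.14 to 2.73 CPM in saline and 2.89 to 4.68 CPM in IL-27 treated Muller sums. Its mean in astrocytes was 1002 CPM. No marker of these lists was at 0 in all 6 libraries, though Kcnj8 and Acta2 (pericytes), Cdh5 and Tie1 (endothelial cells) and Pax2 (astrocytes) were under 1 CPM in each library. The part of astrocyte RNA in the rise of Atp2b4 was not tested.

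Atp2b4 was tested in 5 other cell types and did not pass in any. Its log2FC was 0.53 (SE 0.38) in astrocytes, 0.36 (SE 0.28) in rods, 0.15 (SE 0.33) in BC, -0.01 (SE 0.09) in AC and -0.22 (SE 0.11) in RGC. In cones, HC, microglia, endothelial cells and pericytes it fell below the filter and was not tested. Endothelial cells had 21.5, 30.6 and 31.3 CPM in saline and 12.2, 128 and 121 CPM in IL-27 treated libraries, from 1 to 16 UMIs each. The groups did not overlap in astrocytes, where saline libraries averaged 56.5 ± 11.9 CPM and IL-27 treated libraries 84.8 ± 12.2 CPM (n = 3 each). In RGC they did not overlap in the opposite direction, at 54.4 ± 3.54 and 45.8 ± 0.532 CPM. Groups also lay apart, lower with IL-27, for Atp2b1 in Muller glia and Atp2a2 in astrocytes, with no call. For Atp2b1 the lowest saline library had 190.7 CPM and the highest IL-27 treated library 189.5 CPM. The share of all genes whose groups lay apart was not counted, so lack of overlap is only a description. In AC the 95% interval for Atp2b4 reached no higher than a fold of 1.13. The differences between the Muller effect and those in rods (0.50, SE 0.25, edgeR adjusted p = 0.776) and cones (1.44, SE 0.44, adjusted p = 0.335) did not pass either, so the rise was not shown to be particular to Muller glia.

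Slc8a1 in Muller glia was lower in each IL-27 treated library than in each saline library. Saline libraries had 51.8, 71.0 and 45.3 CPM, and IL-27 treated libraries 14.6, 29.7 and 33.0 CPM. The log2FC was -1.10 (SE 0.26), which did not pass (edgeR adjusted p = 0.215). DESeq2 called it (adjusted p = 0.00505), and so did edgeR without the filter on low counts (adjusted p = 0.00105, where 1.26% were called, 0.246% higher and 1.01% lower) and without IL-27 replicate 10 (adjusted p = 0.0336). The 8 RGC markers summed to 114 to 124 CPM in the saline Muller sums and 80.0 to 104 CPM in the IL-27 treated ones, without overlap, and the 7 AC markers to 749 to 866 and 698 to 906 CPM. Their part in the Slc8a1 difference was not tested.

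One Muller cluster differed in size between the libraries. The cluster, identified by Fbln1, Frmpd4, Reln and Csmd3, held 660 of the 5428 Muller nuclei, of which 600 were summed. Of those 600, 83.0% came from saline libraries. It made up 20.0, 21.9 and 11.04% of all Muller nuclei in saline replicates 1, 2 and 6. In IL-27 replicates 4, 5 and 10 it made up 1.74, 0.597 and 12.6%. IL-27 replicate 10 was thus above saline replicate 6 in cluster share and below it in Slc8a1 level in all Muller nuclei. IL-27 replicate 5 had the smallest share and a higher Slc8a1 level than IL-27 replicate 4, from 113 and 50 Muller UMIs of Slc8a1. These are single libraries, and how cluster share and Slc8a1 level go together was not tested. The cluster's nuclei averaged less of each of the 7 Muller markers than the other Muller nuclei. Rlbp1 was at 45.0 against 338 CPM, Aqp4 at 90.8 against 556 CPM and Abca8a at 159 against 1427 CPM. Glul was at 608 against 988 CPM, and Clu was closest, at 436 against 479 CPM. The Muller marker score that named the cluster was 1.35, against 3.08 to 3.94 in the other Muller clusters. Its name as Muller glia is thus less sure than theirs.

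Slc8a1 was far higher in that cluster, a description with no test since the cluster was drawn from these nuclei. Saline libraries had 232, 272 and 271 CPM of Slc8a1 there and 20.3, 24.3 and 21.3 CPM in the other Muller nuclei. In the cluster, IL-27 replicates 4, 5 and 10 had 98.3, 295 and 191 CPM, from 4, 6 and 62 UMIs. Averaged over 6 libraries, its level in the cluster was 11.04 times that in the other nuclei. Of all Muller Slc8a1 UMIs, the cluster supplied 68.0, 72.1 and 56.0% in saline replicates 1, 2 and 6. In IL-27 replicates 4, 5 and 10 it supplied 8.0, 5.31 and 58.5%. Without the cluster, the log2FC of Slc8a1 was -0.17 (SE 0.25, edgeR adjusted p = 0.987) and by DESeq2, an alternative chosen after the data were seen, -0.18 (SE 0.28, adjusted p = 1.0, where 0.148% of genes passed, 0.14% higher and 0.00738% lower). Fewer nuclei of the cluster and less Slc8a1 RNA per nucleus cannot be told apart in the whole Muller sums. In the other Muller nuclei the saline libraries averaged 21.9 ± 2.44 CPM and the IL-27 treated libraries 19.1 ± 8.06 CPM (n = 3 each), and they overlapped. Without removing doublets, the log2FC was -0.27 (SE 0.15, edgeR adjusted p = 0.770).

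Slc8a3 (8.15 CPM in the cluster and 34.5 CPM in other Muller nuclei) and Atp2b2 (34.4 and 71.2 CPM) were lower in the cluster on average. Atp2b1 (164 and 193 CPM) and Atp2a2 (141 and 164 CPM) were closer. Atp2b4 was at 58.3 CPM in the cluster and 86.1 CPM in the other nuclei, and the cluster supplied 17.7% or less of the Muller Atp2b4 UMIs of any library.

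**Figure D4:**
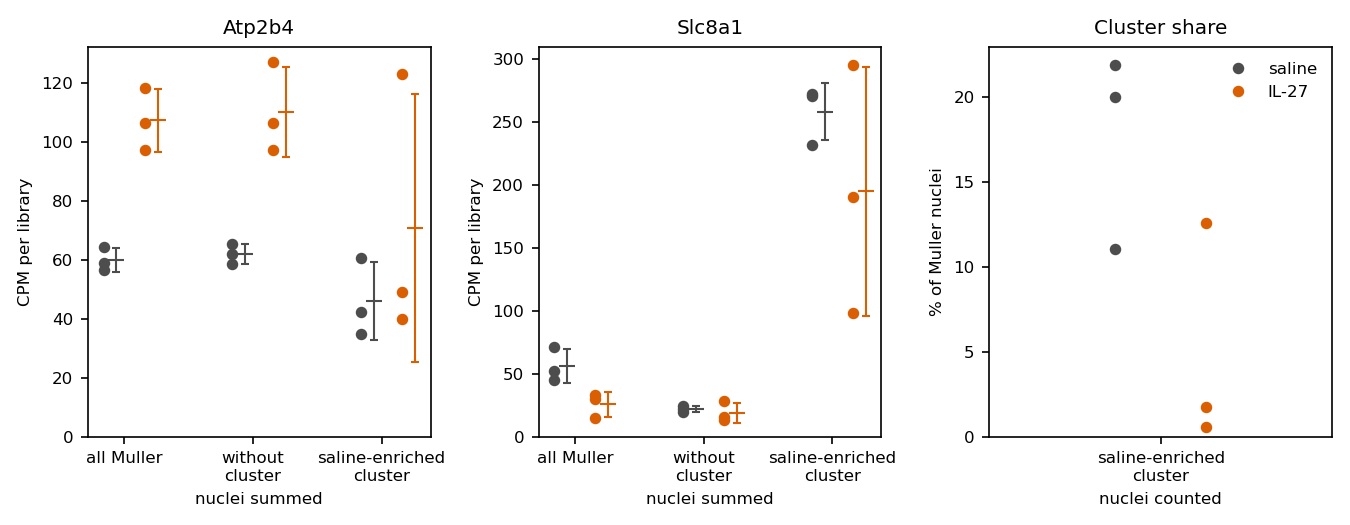
CPM of Atp2b4 (left) and Slc8a1 (middle) per library in all Muller nuclei, in Muller nuclei without the saline-enriched cluster and in that cluster, and the share of Muller nuclei in the cluster (right; %). Points are libraries (grey, saline; orange, IL-27), and bars in the first 2 panels show mean ± SD of 3. Atp2b4 stays apart without the cluster, and Slc8a1 does not.

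The difference between cell types in the effect on Slc8a1 was tested directly. Its effect in Muller glia differed from that in rods by -1.31 (SE 0.23, edgeR adjusted p = 0.0332), in a comparison where 0.165% of 15157 genes passed. Against cones the difference was -1.34 (SE 0.23, adjusted p = 0.00355), where 0.353% of 14173 genes passed. In rods the saline libraries had 42.5, 38.8 and 42.7 CPM and the IL-27 treated libraries 38.5, 63.3 and 41.7 CPM, which overlap. In cones the values were 128, 111 and 174 CPM for saline and 84.0, 198 and 213 CPM for IL-27, also overlapping. Against rods it was lost without saline replicate 1 (edgeR adjusted p = 0.328) or 2 (0.284) or IL-27 replicate 4 (0.0558) or 5 (0.156). Against cones it was lost without saline replicate 2 (0.065). Without the saline-enriched cluster, neither difference passed, at -0.44 (SE 0.20, adjusted p = 0.944) against rods and -0.45 (SE 0.23, adjusted p = 0.967) against cones. None of the 7 members tested differed between cones and rods, where 0.0234% of genes passed, and the lowest unadjusted p was 0.0111, for Slc8a3 at 0.34 (SE 0.13, edgeR).

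In photoreceptors, the site of the rd10 lesion, no member passed, and the intervals bound only the changes of members tested. In rods 2 members and in cones 4 fell below the filter and were not tested. Some 95% intervals of the fold were wide, at 0.854 to 1.93 for Atp2b4 and 0.594 to 1.72 for Slc8a2 in rods. For Atp2b2 in cones the interval was 0.566 to 1.32. In rods, the log2FC was -0.06 (SE 0.09) for Atp2b1, 0.01 (SE 0.11) for Atp2a2 and -0.19 (SE 0.12) for Slc8a3. The 95% intervals of the fold were 0.833 to 1.10, 0.860 to 1.17 and 0.732 to 1.05. Rod libraries had 483, 506 and 518 CPM of Atp2b1 in saline and 481, 504 and 453 CPM in IL-27 treated retinas, and the groups overlapped. For Slc8a3 in rods the values were 72.4, 62.6 and 63.8 CPM in saline and 63.9, 57.0 and 52.9 CPM in IL-27 treated retinas, where the highest IL-27 treated library lay above 2 saline libraries. In cones, the log2FC was 0.08 (SE 0.12) for Atp2b1, 0.11 (SE 0.13) for Atp2a2 and 0.15 (SE 0.12) for Slc8a3. Slc8a1 in cones, at 0.25 (SE 0.23), had an interval of 0.857 to 1.66-fold.

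Among inner retinal neurons no member passed either. In BC, Atp2b1 had a log2FC of -0.00 (SE 0.07), with a fold interval of 0.904 to 1.10. In AC, all 8 members tested lay between -0.09 and 0.06. Slc8a1 in microglia, where it was highest, had a log2FC of 0.02 (SE 0.16). Atp2b3 in RGC was -0.03 (SE 0.10). In pericytes, astrocytes and endothelial cells, with 119, 262 and 202 nuclei summed, intervals were wide. Atp2b1 in endothelial cells, for example, had a log2FC of 0.03 (SE 0.39).

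Other calcium-handling genes were followed as a list of 66, made of further transporters such as the Slc24 exchangers, partners and regulators, channels of store release and entry, mitochondrial uptake, voltage-gated channel subunits and calcium buffers. None passed in any type with edgeR, over 449 tests. At an unadjusted p under 0.05, 13 were higher and 25 lower, and over all genes and types 4.21% of tests were below that p. The largest number was in Muller glia, with 1 higher and 8 lower of 57 tested, where 567 of all 13970 genes were higher and 713 lower at that p (9.16%). The median log2FC of those 57 was -0.06, against 0.00 for all genes tested. In rods the medians were -0.00 and 0.00, over 56 genes of the list, and in cones 0.03 and 0.00, over 43.

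DESeq2 called 3 of the 57 in Muller glia, all lower with IL-27, in a fit that called 0.73% of all genes (0.501% lower). They were Cacnb4, a channel beta subunit (log2FC -1.47, SE 0.26, adjusted p = 2.85e-05), Ryr2, a store release channel (-0.90, SE 0.23, adjusted p = 0.0154), and Cacna1g, a T-type channel (-1.03, SE 0.29, adjusted p = 0.0478). Without the saline-enriched cluster, neither edgeR nor DESeq2 called any of the list in Muller glia, in fits that called 0.0369% and 0.148% of all genes. The edgeR log2FC was then -0.05 (SE 0.18) for Cacnb4, 0.11 (SE 0.22) for Ryr2 and -0.74 (SE 0.25) for Cacna1g. The 7 other transporters tested in Muller glia, the Slc24 exchangers among them, were fitted with the cluster included. Their edgeR log2FC had a median of 0.02 and a range of -0.42 to 0.42.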

How the data were processed

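The authors isolated nuclei from frozen retinas, made 10x 3′ libraries and counted UMIs with Cell Ranger (9.0.1 per the labels, with Seurat 5.2.1 used later). The deposited values are whole UMI counts per gene and barcode, with no normalization. Nuclei had to pass minimums of 500 UMIs and 200 genes and a mitochondrial share below 5%, and 612 to 715 presumed doublets per library were removed by Scrublet score (scanpy 1.11.5, expected rate 8%). Louvain clustering (igraph 0.11.9) used 2000 variable genes without the members, 25 components, 20 neighbours and a resolution of 0.25. Clusters were split once more and named from markers, with at least 3 required. Mixed and unnamed clusters and 7 RPE nuclei, 2445 nuclei in all, were left out. Counts were summed per library and type after leaving out nuclei whose log2 UMI count lay more than 2 MADs (median absolute deviations) off their median. Genes kept by filterByExpr at 10 counts were tested with edgeR 4.0.16 (TMM) in R 4.3.3. Effect differences used 1 fit with the library as a block. DESeq2 1.42.0 was an alternative. Fits were tested on simulated data. The members, lists and tests were chosen with earlier results of these data known. Named were all members, companion genes past the threshold and the 3 genes most like each member. Companion genes past it only in an alternative were chosen after their values were seen. The result of 1 motif search and 1 result of the companion list are not reported here.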

Additional observations from a re-analysis of the deposited data

Results flagged for a closer look

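The effect of IL-27 on Slc8a1 differed between cell types in the tests of the difference itself. In Muller glia minus rods the log2FC difference was -1.31 (edgeR adjusted p = 0.0332), and in Muller glia minus cones it was -1.34 (adjusted p = 0.00355). Slc8a1 was lower in all 3 IL-27 treated Muller sums than in the saline sums. Its share of UMIs from the saline-enriched Muller cluster was 56.0 to 72.1% in saline libraries and 5.31 to 58.5% in IL-27 treated libraries. Both differences fell below the threshold without that cluster, as given in the report. With 3 libraries per group, single outlying libraries were not screened for.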

How the results depend on the processing

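No paired analysis was possible because the groups compared share no replicate numbers. Members called in Muller glia numbered 1, and 2 with DESeq2 and with no filter on low counts, where Slc8a1 was added (log2FC -1.10 and -1.11). None (0) was called with library totals, a filter at 30 counts, Xist as a covariate or no doublet removal. Leaving out 1 library gave 0 to 2. Companion genes called in Muller glia numbered 0, and 3 with DESeq2 (0.73% of all genes called), 4 with no filter on low counts (1.26%) and 0 to 5 with 1 library left out, the 5 (in a fit that called 2.96%) being Cacnb2, Cacnb4, Cacna1g, Ryr2 and Calm2 without IL-27 replicate 10. Effect differences called for Slc8a1 numbered 1 in Muller glia minus rods and 1 in Muller glia minus cones, and 0 in both without doublet removal and without the saline-enriched cluster. Leaving out 1 library gave 0 to 1 in each, with 0 against rods without saline replicate 1 or 2 or IL-27 replicate 4 or 5, and 0 against cones without saline replicate 2. Mean CPM of Atp2b2 in AC was 396 with a mitochondrial limit of 1%, and that of Atp2a3 in pericytes was 114 without doublet removal. The highest type of each member was the same in 13 of 13 alternatives, save Atp2b4, for which it was in 10. Shares of nuclei with a UMI rose with depth. Without thinning and at 2000 UMIs they were 91.7 and 81.1% for Atp2b1 in BC, 81.0 and 78.8% for Slc8a3 in cones, 91.5 and 94.3% for Slc8a1 in microglia, 12.0 and 7.29% for Slc8a1 in Muller glia, and 26.6 and 13.2% for Atp2b4 in Muller glia. DESeq2 on Muller sums without the saline-enriched cluster was added after the data were seen, and among members and companion genes it called Atp2b4 only (adjusted p = 0.000141). The cause of each change was not tested. Depth limits pericytes, endothelial cells and astrocytes, where 2 to 4 members passed the filter.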
